A study of Mus musculus with 8 samples.

Results

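The subject here is a list of 10 Wnt ligand genes, *Wnt2*, *Wnt2b*, *Wnt3*, *Wnt4*, *Wnt5a*, *Wnt5b*, *Wnt7a*, *Wnt7b*, *Wnt9a* and *Wnt10a*, in the hippocampus of mice that lack *Wls* in part of the brain. The members were taken by name and are 10 of the 19 Wnt genes found in both kinds of table, out of 46517 genes in bulk RNAseq and 24051 in single nucleus RNAseq (snRNAseq). The study compared Gfap-Cre;Wls fl/- (mutant) with Gfap-Cre;Wls fl/+ (control) mice, both adult. In both genotypes Cre recombinase was expressed from the *Gfap* promoter, which acts in a subset of neural progenitors and not in every cell. The control is therefore not wild type: its recombined cells keep 1 copy of *Wls*, whereas those of the mutant keep none, and its remaining cells keep both. In the mutant, cells that did not recombine keep 1 copy. For each assay there were 2 mice per genotype and 1 library per mouse, made in bulk RNAseq from both hippocampi of the mouse, so the 8 samples allow a comparison of 2 against 2.

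Wnts are secreted proteins that carry a lipid, attached by the enzyme that *Porcn* encodes, and they leave the cell bound to the membrane protein encoded by *Wls*. They act on frizzled receptors with the coreceptors LRP5 and LRP6, and in the canonical branch beta-catenin then works with the DNA-binding TCF/LEF factors. The dentate gyrus of the hippocampus forms next to the cortical hem, a source of Wnts in the embryo, whereas the present data are from adults. Because a Wnt can only be released by a cell with functional *Wls*, the question for each ligand is which cells hold its transcript and what happened to *Wls* in those cells.

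Several samples and cell labels went against their description. The mice are labelled male, but in bulk RNAseq *Xist*, the RNA of the inactive X chromosome, was at 230.1 CPM (counts scaled by the library total) in mutant replicate 2 and 518 in control replicate 2, against 1.44 and 1.05 in mutant and control replicate 1. *Ddx3y*, which is Y-linked, measured 0.352 and 0.343 CPM in mutant and control replicate 2 and 54.5 and 58.3 in mutant and control replicate 1. Replicate 2 of both genotypes thus had the pattern of a female, and log2 ratios within each replicate number, which are within 1 sex, are given beside the bulk values. In snRNAseq all 4 libraries had the pattern of a male, with *Xist* between 1.60 and 3.49 UPM and *Ddx3y* between 31.6 and 53.8. A UMI marks 1 captured RNA molecule, and UPM scales the UMIs of a gene in 1 type and sample by all UMIs there, as CPM does for reads. Pairs of snRNAseq libraries shared between 8 and 21 nucleus barcodes, at most 0.309% of a library.

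The authors deposited 1 of 21 cell type labels with each nucleus, and 4 of the numbered neuron labels had another marker list above that of their own class. The label inhibitory neurons 14 had 420.2 UPM over the 5 inhibitory markers and 16094 UPM over the 12 markers of meninges and fibroblasts, all detected and led by *Ptgds*. It also had 2441 UPM over the 5 endothelial markers, led by *Flt1*. The label excitatory neurons 19 had 103.8 UPM over the 4 excitatory markers, with *Slc17a6* at 0, and 3578 UPM over the meningeal list, of which 11 of 12 genes were detected. In excitatory neurons 13 the inhibitory list was ahead, at 689 against 495 UPM, with most of it from *Kcnip1*. Its excitatory sum was not below those of excitatory neurons 7, 8 and 10, at 470, 481 and 350 UPM. Its inhibitory sum was far below the 5241, 12428 and 10865 UPM of inhibitory neurons 5, 12 and 18. These sums thus do not set it apart from the other excitatory labels. In inhibitory neurons 15 the excitatory list was ahead, at 238 against 118 UPM. The deposited names are kept below only as names. Genotypes were compared in the 18 types for which each sample had 10 or more nuclei, which dropped EC, choroid plexus and inhibitory neurons 15.

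Upstream sequence is shown for 2 ligands. *Wnt4* was the single ligand that passed the test between genotypes in a cell type. *Wnt5b* was the only one of the 7 ligands with a RefSeq promoter window (mm10) to match the 1 TCF/LEF motif searched. The *Wnt4* sequence, chr4:137277385-137277488 on the plus strand, ends at the base before the annotated start of the gene and is 83.7% G and C. The *Wnt5b* sequence, chr6:119449387-119449636 on the minus strand, lies before an internal start of the gene, and the capitals mark the motif. Both are written 5′ to 3′.
Wnt4: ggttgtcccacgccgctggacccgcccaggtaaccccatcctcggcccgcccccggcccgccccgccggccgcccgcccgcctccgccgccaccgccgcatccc
Wnt5b: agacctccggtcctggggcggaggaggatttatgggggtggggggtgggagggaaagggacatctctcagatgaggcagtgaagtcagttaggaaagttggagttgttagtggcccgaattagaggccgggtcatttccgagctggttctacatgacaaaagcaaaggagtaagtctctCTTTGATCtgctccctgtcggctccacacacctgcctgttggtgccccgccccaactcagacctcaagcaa

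The motif searched was CTTTGATC on either strand, in windows of 300 bases that reach from 250 before a start to 50 after it. It occurred in 308 of 32851 windows of all genes (0.938%). The table held 9 windows of 7 of the ligands, and 1 of these had the motif. *Wnt5a*, *Wnt7b* and *Wnt10a* were not in it. A match is a run of letters and not a site shown to be bound, and its absence from the *Wnt4* window says nothing of the factors.

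*Wnt7a* and *Wnt7b* were highest in the glial types, astrocytes and oligodendrocyte precursors (OPC). Both encode canonical ligands best known for their part in the growth of brain vessels. *Wnt7a* (mm10 chromosome 6, 91363981 to 91411363, minus strand) was at 54.5 and 68.4 UPM in astrocytes of control replicates 1 and 2 and at 60.2 and 59.3 UPM in those of mutant replicates 1 and 2. In OPC it was at 39.0 and 36.4 UPM in the controls and 42.1 and 41.2 UPM in the mutants. All 4 samples were higher in astrocytes than any was in OPC, and all 4 OPC samples were above every sample of the next type, inhibitory neurons 5, where the control mean was 8.08 UPM. *Wnt7b* (chromosome 15, 85535437 to 85582473, minus strand) was at 47.4 and 46.1 UPM in control astrocytes and at 83.1 and 58.1 UPM in mutant astrocytes. In OPC *Wnt7b* was at 45.1 and 33.0 UPM in controls and at 36.8 and 31.1 UPM in mutants. Astrocytes were thus above OPC in every sample, with a ratio of the control means of 1.20. Counted per nucleus, the highest control mean of *Wnt7b* was instead in excitatory neurons 10, and the ratio of astrocytes to that type was 0.763. In dentate granule cells (DGC) *Wnt7b* was at 12.05 and 16.9 UPM in controls, which overlapped with its level in excitatory neurons 10. Microglia, a type set beside the others as a measure of free RNA, had no UMI of *Wnt7a* in 3 samples and 1 UMI in the other, and had *Wnt7b* at 0 and 8.33 UPM in the controls, 0 and 6 UMIs.

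*Wnt2* was found in CA1 pyramidal cells and in excitatory neurons 13, whose order differed between samples. Its protein acts through beta-catenin in many tissues. The gene (chromosome 6, 17988940 to 18030585, minus strand) was at 12.1 and 10.9 UPM in CA1 of control replicates 1 and 2 and at 8.0 and 8.67 UPM in mutant replicates 1 and 2. Excitatory neurons 13 had 4.65 and 16.97 UPM in the controls and 11.8 and 15.5 UPM in the mutants, above CA1 in every sample but control replicate 1. CA3 was at 2.16 and 3.14 UPM and DGC at 0.440 and 1.17 UPM in the controls, below every CA1 value. No UMI of *Wnt2* was found in microglia of any sample.

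*Wnt5a* and *Wnt5b*, close relatives that mostly signal without beta-catenin, were highest in inhibitory neurons 14, a label with meningeal genes, and then in inhibitory neurons 5. *Wnt5b* (chromosome 6, 119432531 to 119544347, minus strand) was at 115.1 and 123.8 UPM in inhibitory neurons 14 of the controls and at 116 and 96.3 UPM in the mutants. Inhibitory neurons 5, which did have inhibitory markers, had 74.2 and 79.3 UPM in the controls and 85.8 and 83.9 UPM in the mutants. All 4 samples kept this order in UPM, whereas counted per nucleus the ratio of inhibitory neurons 14 to the next type was 0.547. *Wnt5b* was not confined to these types. In control oligodendrocytes it was at 26.9 and 41.6 UPM, near the 27.4 and 40.5 UPM of control inhibitory neurons 12. Its lowest control mean in a tested type was 6.92 UPM, in microglia. *Wnt5a* (chromosome 14, 28504750 to 28527448, plus strand) was at 38.4 and 129.8 UPM in inhibitory neurons 14 of the controls and at 51.6 and 52.9 UPM in the mutants, a wide spread between the control mice. In inhibitory neurons 5 *Wnt5a* was at 27.1 and 34.9 UPM in controls and 18.0 and 29.4 UPM in mutants, and the groups overlapped. In control DGC *Wnt5a* was at 1.23 and 0.799 UPM.

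*Wnt4* (chromosome 4, 137277489 to 137299726, plus strand), a ligand with roles in kidney and gonad formation, stood out in inhibitory neurons 14. There it was at 221.7 and 235.6 UPM in control replicates 1 and 2 and at 212.8 and 278.3 UPM in mutant replicates 1 and 2. The next type, OPC, had 26.7 and 34.1 UPM in the controls, and the ratio of the control means was 7.52. OPC, excitatory neurons 7, mossy cells and excitatory neurons 10 followed each other with overlapping control values. In CA1 *Wnt4* was at 13.6 and 21.2 UPM in controls and 16.1 and 23.5 UPM in mutants. It was lower in control DGC, at 5.28 and 8.91 UPM.

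*Wnt9a* (chromosome 11, 59306928 to 59333552, plus strand), known from joint formation, was highest in excitatory neurons 19, the small label with meningeal markers. It was at 80.4 and 118.8 UPM in the controls and at 210.3 and 24.7 UPM in the mutants, from 34 UMIs over all 4 samples. The control mean was 10.51 times that of the next type, excitatory neurons 8. In DGC *Wnt9a* was at 8.26 and 4.55 UPM in controls and at 14.5 and 11.97 UPM in mutants. Its level in control microglia, 11.02 and 0 UPM from 2 and 0 UMIs, lay on either side of that of control DGC. *Wnt3* (chromosome 11, 103774150 to 103817957, plus strand), a canonical ligand that adult hippocampal astrocytes have been reported to make, was instead highest in mossy cells, at 21.9 and 23.5 UPM in controls and 16.1 and 2.14 UPM in mutants. These mossy cell levels rest on 27 UMIs over all samples. Oligodendrocytes came next for *Wnt3*, at 6.73 and 9.02 UPM in controls and 7.17 and 12.1 UPM in mutants, and all 4 samples there were above all 4 in astrocytes, where controls had 1.79 and 2.91 UPM, although mutant replicate 1 had 1 UMI in oligodendrocytes and control replicate 1 had 3.

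*Wnt2b* (chromosome 3, 104945272 to 104961921, minus strand) had no type that stood apart. Its control means lay between 4.57 and 14.8 UPM over the 18 types, and the highest, inhibitory neurons 18 with 11 UMIs over all samples, was not above the next in both controls. In mutant replicate 2, which alone had many choroid plexus nuclei, *Wnt2b* was at 21.9 UPM in these 184 nuclei. *Wnt10a* (chromosome 1, 74791516 to 74804179, plus strand) was scarce, with 134 UMIs over all control nuclei. Among types with at least 10 UMIs its highest control mean was in excitatory neurons 7, at 6.77 and 5.01 UPM in the controls and 6.70 and 0.557 UPM in the mutants.

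**Figure D1:**
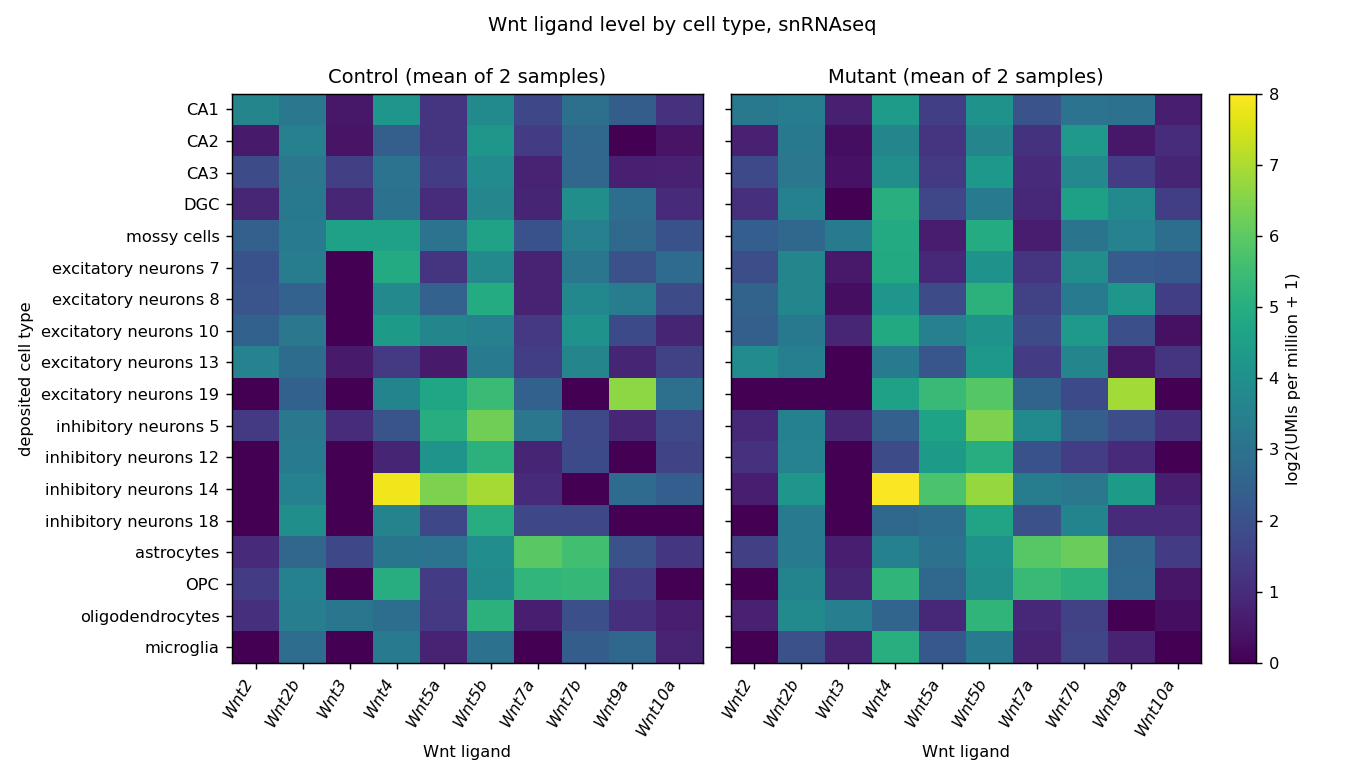
Level of the 10 Wnt ligands (columns) in the 18 tested cell types (rows) as log2(UPM + 1), with the mean of the 2 control samples at left and of the 2 mutant samples at right. *Wnt7a* and *Wnt7b* are brightest in astrocytes and OPC, *Wnt4* in inhibitory neurons 14 and *Wnt9a* in excitatory neurons 19, in both genotypes.

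A type with a high level need not hold most of the transcript, since types differ in number. In the controls together CA1 held 71.3% of the *Wnt2* UMIs and 28.0% of the UMIs of all genes. Inhibitory neurons 5 held 48.1% of *Wnt5a* UMIs and 28.6% of those of *Wnt5b*, against 7.64% of all UMIs. Astrocytes held 45.0% of the *Wnt7a* UMIs and OPC 11.4%, whereas DGC held the most of *Wnt7b* (39.7%) and of *Wnt9a* (45.3%) and had 27.5% of all UMIs. Inhibitory neurons 14, with 0.732% of all UMIs, held 12.99% of the *Wnt4* UMIs, and CA1 held 39.3%. The *Wnt2b* UMIs followed the depth of the types, with 28.5% in CA1 and 27.7% in DGC.

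In the mutants, whose samples had 90 and 463 DGC nuclei against 2336 and 2007 in the controls, DGC held 3.74% of all UMIs. Their part of the *Wnt7b* UMIs was 8.83% and of the *Wnt9a* UMIs 8.61%, and CA1 then held the most of both, with 22.9% and 43.6%. These shares depend on the number and depth of the nuclei in each type and on the level in them, and are a description of the 2 pooled samples. The mean level in DGC was 14.5 UPM in controls and 22.2 UPM in mutants for *Wnt7b*, and 6.41 and 13.2 UPM for *Wnt9a*.

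**Figure D2:**
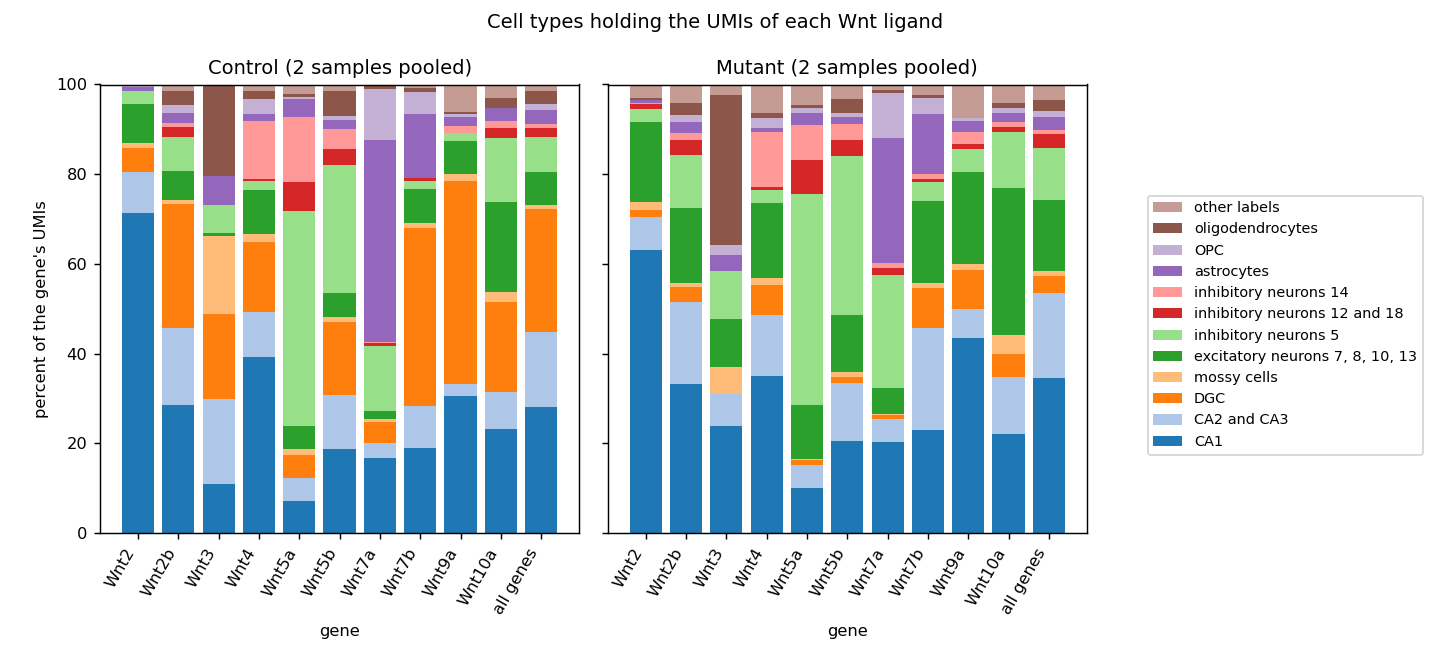
Percent of the UMIs of each Wnt ligand, and of all genes, in groups of deposited cell types, for the 2 control samples pooled (left) and the 2 mutant samples pooled (right). DGC held 39.7% of *Wnt7b* UMIs in controls and 8.83% in mutants, while CA1 held the most of *Wnt2* in both (71.3% and 63.0%).

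*Wls* itself was measured next in the same types, since a lost copy bears only on the cells that make a Wnt. Its control level was highest in inhibitory neurons 14 and excitatory neurons 19, at 498.7 and 471.1 UPM in the first and 348.6 and 320.0 UPM in the second. Microglia, in which no ligand had enough UMIs to be tested, came next, at 159.7 and 208 UPM in controls and 46.4 and 91.8 UPM in mutants. The mutant values of the first 2 types were 180.5 and 195.0 UPM and 42.1 and 98.9 UPM, below both controls, but neither change passed the test, with false discovery rates (FDR, by Benjamini-Hochberg adjustment) of 0.726 and 0.322 by edgeR's quasi-likelihood test. The sources used here do not say which part of *Wls* the floxed allele loses, and snRNAseq reads a tag of each RNA, so a level of *Wls* outside the lost part would not show recombination.

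By that test *Wls* was lower in the mutant with a fold change (FC) above 2 and FDR below 0.05 in 4 of the 14 types where it could be tested, and in 10 of 18 with no filter on low counts. In astrocytes, the highest type of *Wnt7a* and *Wnt7b*, *Wls* was at 51.0 and 38.8 UPM in controls and 2.87 and 1.99 UPM in mutants, with a log2 fold change of -4.28 ± 0.45 (SE) and FDR 2.3e-04. In oligodendrocytes it was at 76.2 and 88.7 UPM in controls, at 0 in mutant replicate 1 and at 4.93 UPM in mutant replicate 2, a log2 fold change of -4.14 ± 0.41. In OPC the controls had 47.2 and 63.7 UPM and the mutants 0 and 6.99, and in inhibitory neurons 12 the controls had 82.3 and 81.8 UPM and the mutants 14.6 and 10.6. In each of these types both mutants were below both controls. Of all tests of a gene in a type, 0.19% were called in either direction, and by type these were 0.383% in astrocytes, 0.0892% in oligodendrocytes, 0.132% in OPC and 0.0735% in inhibitory neurons 12.

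These 4 types together held 57.5% of the control UMIs of *Wnt7a*, 26.8% of those of *Wnt3* and 20.6% of those of *Wnt7b*, against 9.33% of the UMIs of all genes. For *Wnt2* and *Wnt9a* the share was 1.56% and 2.96%, and for the other 5 ligands it lay between 6.88% and 11.8%. These shares depend on the filter. The 10 types called without it held 90.0% of the *Wnt7a*, 84.7% of the *Wnt5a* and 78.9% of the *Wnt2* UMIs, against 50.3% of all UMIs. They held 69.6% of the *Wnt4*, 66.3% of the *Wnt5b*, 60.4% of the *Wnt10a* and 50.6% of the *Wnt2b* UMIs. For *Wnt7b*, *Wnt3* and *Wnt9a* the share was 45.5%, 44.1% and 40.2%. *Wls* also had both mutants below both controls in types where it was not called with the filter. In CA1, which held most of the *Wnt2* and the largest part of the *Wnt4* UMIs, *Wls* was at 16.5 and 14.8 UPM in controls and 3.94 and 4.89 UPM in mutants, with a log2 fold change of -1.82 ± 0.23 and FDR 0.421 by edgeR's quasi-likelihood test. Inhibitory neurons 5, the largest holder of *Wnt5a* and *Wnt5b*, had *Wls* at 59.3 and 65.1 UPM in controls and 18.9 and 25.4 UPM in mutants, with a log2 fold change of -1.43 ± 0.20 and FDR 0.0917. In DGC, which held the largest part of the *Wnt7b* and *Wnt9a* UMIs in controls, *Wls* was low in both genotypes, at 3.34 and 4.43 UPM in controls and 4.83 and 5.55 UPM in mutants, with a log2 fold change of 0.49 ± 0.42.

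**Figure D3:**
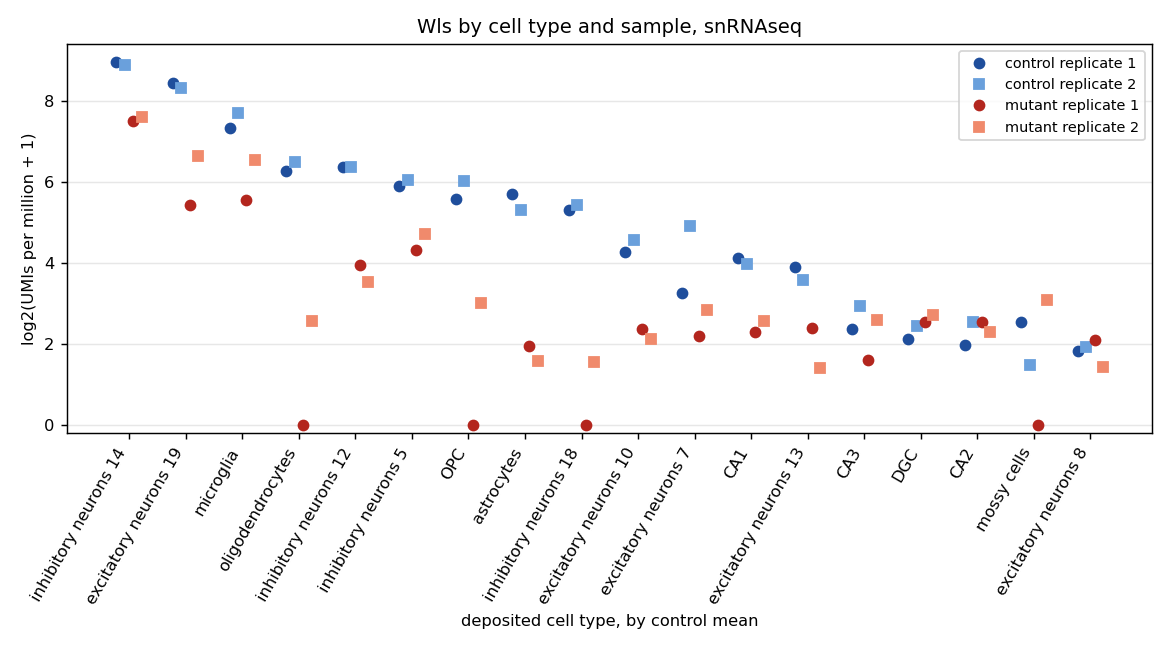
*Wls* as log2(UPM + 1) in each of the 18 cell types, ordered by control mean, with 1 point per sample. Both mutants lie below both controls in the 4 called types (astrocytes, oligodendrocytes, OPC and inhibitory neurons 12) and also in CA1, excitatory neurons 7, 10, 13 and 19, inhibitory neurons 5, 14 and 18, and microglia, but not in DGC.

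The ligands themselves were then compared between genotypes in each type, which asks whether transcripts of Wnts changed where *Wls* was reduced. Of 72 tests of a ligand in a type, 1 (1.39%) passed FC above 2 and FDR below 0.05 in edgeR, against 0.19% of all tests of genes in types. DESeq2 also called 1 of the ligand tests. At an unadjusted p below 0.05 there were 11 such tests (15.3%), 10 of them with the ligand higher in the mutant, against 9.31% of all tests of genes in types, where 8164 of these were higher and 8791 lower.

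The test that passed was *Wnt4* in DGC. The control replicates 1 and 2 had 5.28 and 8.91 UPM (60 and 145 UMIs), and the mutant replicates 1 and 2 had 21.7 and 40.6 UPM (9 and 139 UMIs). Both mutants were above both controls. The exact 95% Poisson interval of mutant replicate 1, which covers counting error only and no variation between mice, was 9.94 to 41.3 UPM. The log2 fold change was 2.31 ± 0.34 with FDR 0.0137 by edgeR's quasi-likelihood test, in a type in which 1.47% of 15003 genes were called. It was 1.65 ± 0.31 higher than the mean change of *Wnt4* over the other types, by a test of that difference over 15499 genes (FDR 6.1e-04), of which 0.723% passed FDR below 0.05. Without mutant replicate 1 the FDR was 0.0689, and without mutant replicate 2 it was 0.492 with a log2 fold change of 1.55, so the call rests on both mutant mice.

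Genes that mark position along the dentate gyrus changed in the same nuclei, with FDR of 0.0016 for *Trhr* and 0.0364 for *Lct* by edgeR's quasi-likelihood test. *Trhr*, higher in ventral DGC, was at 6.68 and 7.44 UPM in control and 60.4 and 56.9 UPM in mutant DGC, and *Lct*, higher in dorsal DGC, was at 25.1 and 28.1 UPM in control and 12.1 and 9.34 UPM in mutant DGC. *Prox1*, the defining transcription factor of DGC, was at 283 UPM in both controls and at 299 and 333 UPM in the mutants. *C1ql2*, *Plk5* and *Dsp*, also DGC markers, were lower in both mutants than in both controls. *C1ql2* was at 41.1 and 38.8 UPM in controls and 7.24 and 14.6 UPM in mutants (FDR 0.0242 by the same test). *Plk5* was at 51.1 and 40.5 UPM in controls and 31.4 and 17.2 UPM in mutants (FDR 0.0706). *Dsp* was at 46.4 and 39.0 UPM in controls and 33.8 and 25.7 UPM in mutants (FDR 0.219). In a division of control nuclei chosen after these values were seen, *Wnt4* was at 20.6 and 26.9 UPM in nuclei with *Trhr* and no *Lct*, and at 2.99 and 5.13 UPM in nuclei with *Lct* and no *Trhr*. The first of these sets rests on 8 and 21 UMIs of *Wnt4*. In mutant nuclei with *Trhr* and no *Lct*, *Wnt4* was at 21.7 UPM in replicate 1, from 2 UMIs and between the control values, and at 55.5 UPM in replicate 2, above them. In mutant nuclei with *Lct* and no *Trhr*, *Wnt4* was at 42.0 UPM in replicate 1 and 6.65 UPM in replicate 2, from 1 UMI each. In nuclei with neither gene it was at 4.98 and 8.56 UPM in controls and 20.6 and 36.8 UPM in mutants. The part of dorsal and ventral position in the *Wnt4* result was not tested.

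Markers of other cells were also present in DGC nuclei. The 4 CA3 markers, led by *Grik4*, summed to 218 and 302 UPM in controls and 355 and 514 UPM in mutants. The 5 inhibitory markers, led by *Gad1*, summed to 92.8 and 102 UPM in controls and 186 and 106 UPM in mutants, and the 5 markers of subiculum and cortex, led by *Hs3st4*, to 189.5 and 211 UPM in controls and 396 and 292 UPM in mutants. All genes of these lists were detected, and their part in the result was not tested. The 4 CA1 markers summed to 18.2 and 23.1 UPM in controls and 21.7 and 35.0 UPM in mutants.

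A UMI of *Wnt4* was found in 2.48% and 6.13% of DGC nuclei of control replicates 1 and 2 and in 10.0% and 22.9% of those of mutant replicates 1 and 2. After each nucleus was thinned to 1500 UMIs the shares were 0.942% and 0.947% in controls and 5.56% and 7.78% in mutants. In microglia, taken as a measure of free RNA, the thinned shares were 0.952% and 2.79% in controls and 7.69% (1 of 13 nuclei) and 2.71% in mutants. The control DGC shares were thus at or below this background, that of mutant replicate 2 was above it, and the 13 microglia nuclei of mutant replicate 1 are too few to set a level for it. In oligodendrocytes the thinned shares were 0.431% and 1.17% in controls and 0 and 1.26% in mutants. Median UMIs per nucleus were 4628 and 7688 in control DGC and 4242 and 7126 in mutant DGC, against 1632 and 2434 in control and 1701 and 1958 in mutant microglia. The exact 95% binomial interval of the share in mutant replicate 1, which covers counting error only, reached from 4.68% to 18.1% before thinning.

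**Figure D4:**
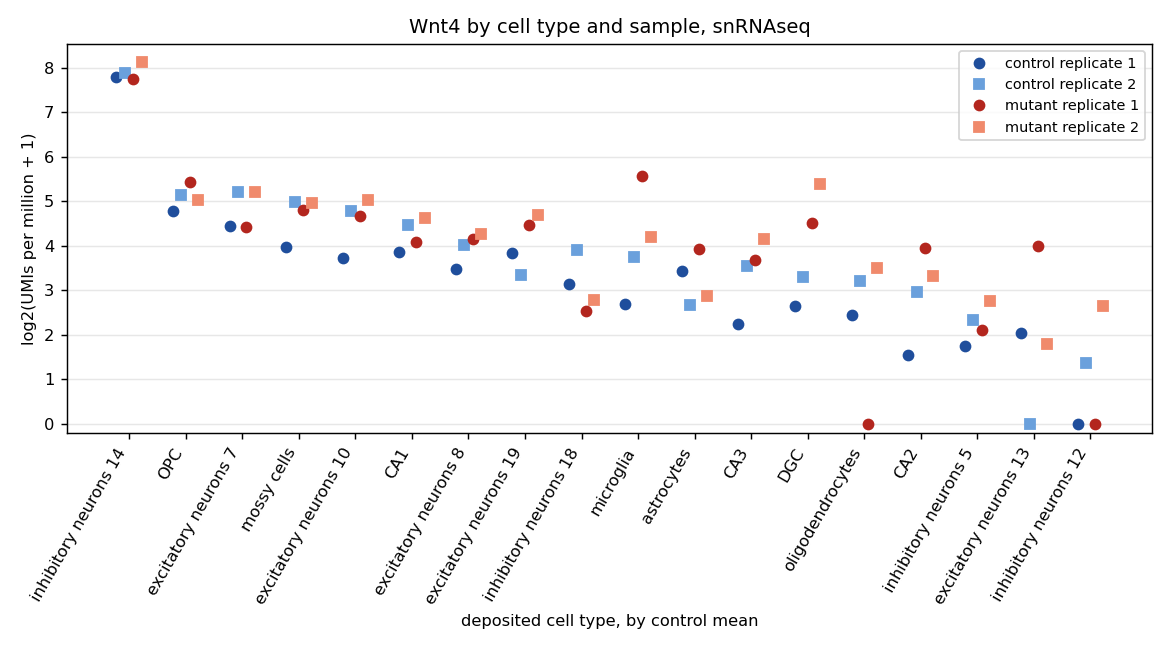
*Wnt4* as log2(UPM + 1) in each of the 18 cell types, ordered by control mean, with 1 point per sample. Inhibitory neurons 14 lie above all other types in every sample, and in DGC both mutants (21.7 and 40.6 UPM) lie above both controls (5.28 and 8.91 UPM).

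In the types where the other ligands were highest, none of those that could be tested passed, and *Wnt2b* could not be tested in inhibitory neurons 18. *Wnt7a* in astrocytes, with control and mutant samples that overlapped, had a log2 fold change of -0.02 ± 0.24, and in OPC 0.19 ± 0.31. *Wnt7b* in astrocytes, with both mutants above both controls, had 0.53 ± 0.25 (FDR 0.461), and in OPC -0.19 ± 0.34. *Wls* was called lower in both types.

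*Wnt2* in CA1, with both mutants below both controls, had a log2 fold change of -0.47 ± 0.22 and FDR 0.511. *Wnt5a* had -0.79 ± 0.47 in inhibitory neurons 14 and -0.33 ± 0.26 in inhibitory neurons 5, and *Wnt5b* had -0.20 ± 0.28 and 0.17 ± 0.15 in the same types. *Wnt4* in inhibitory neurons 14 had 0.16 ± 0.27, within the spread of the mice. Where transcripts were few the intervals were wide: *Wnt3* in mossy cells had -2.17 ± 0.81 (FDR 0.337) and *Wnt9a* in excitatory neurons 19 had -0.30 ± 0.91. Leaving out 1 mouse turned the direction for *Wnt5a* and *Wnt4* in inhibitory neurons 14 and for *Wnt9a* in excitatory neurons 19.

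Among ligands outside their highest type, *Wnt7b* in CA3 was at 3.15 and 7.26 UPM in controls and 8.84 and 16.6 UPM in mutants, with a log2 fold change of 1.33 ± 0.41 and FDR 0.268. Whether it passed depended on the setting, since by edgeR's quasi-likelihood test the FDR was 0.0032 with no filter on low counts, 0.0197 without mutant replicate 1 and 4.2e-04 without control replicate 2. In DGC *Wnt7b* (0.93 ± 0.33) and *Wnt9a* (0.99 ± 0.40) also missed the adjusted threshold, with FDR of 0.212 and 0.266. *Wnt7b* in DGC passed without control replicate 2, with an FDR of 0.0136 by the same test.

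Bulk RNAseq measured the same genes in the whole hippocampus, with reads over the full transcript. There fewer cells of a type and less RNA per cell cannot be told apart. Per length of transcript, as the authors' TPM (counts scaled by transcript length and total), *Wnt7b* was the most abundant of the ligands, at 23.3 and 25.7 TPM in controls and 22.6 and 22.0 TPM in mutants. *Wnt7a*, *Wnt5a* and *Wnt4* followed, with control values from 6.70 to 10.2 TPM that overlapped between *Wnt5a* and *Wnt4*. *Wnt9a*, *Wnt2*, *Wnt2b*, *Wnt10a*, *Wnt5b* and *Wnt3* had control values from 1.31 to 4.09 TPM.

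No ligand passed FC above 3 and FDR below 0.05 in bulk, against 0.218% of 20687 genes, and 0 had an unadjusted p below 0.05, against 18.8% of all genes. DESeq2 called 0 of the 10 as well, as did a fit with replicate number, and so sex, as a block. Groups did not overlap for 5 of the 10 ligands, against 51.1% of all genes tested, so the share of ligands is near that of any genes. *Wnt4* was at 13.2 and 16.4 CPM in controls and 20.6 and 16.5 CPM in mutants, with a log2 fold change of 0.33 ± 0.16 (FDR 0.361) and log2 ratios of 0.64 and 0.01 within replicates 1 and 2. *Wnt2* was at 2.48 and 2.87 CPM in controls and 2.96 and 5.85 CPM in mutants, a log2 fold change of 0.72 ± 0.35 (FDR 0.343) with most of it in replicate 2 (log2 ratio 1.00, against 0.24 in replicate 1). Both mutants were above both controls in CPM for these 2 ligands, as for 25.8% of all genes. In TPM the groups overlapped for both, since *Wnt4* was at 8.37 in control and 8.15 in mutant replicate 2, and *Wnt2* at 2.77 in control replicate 2 and 2.61 in mutant replicate 1.

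Both mutants were below both controls in CPM for *Wnt5a*, *Wnt2b* and *Wnt10a*, as for 25.4% of all genes. In TPM this held for *Wnt2b* and *Wnt10a*, whereas *Wnt5a* was at 7.77 and 8.40 in controls and 8.44 and 6.88 in mutants. *Wnt5a* had 17.8 and 17.9 CPM in controls and 16.1 and 15.3 CPM in mutants, a log2 fold change of -0.19 ± 0.09. *Wnt10a* had 2.80 and 2.31 CPM in controls and 2.12 and 1.84 CPM in mutants (-0.37 ± 0.21), and *Wnt2b* had -0.23 ± 0.15. Within replicates 1 and 2 the log2 ratios were -0.15 and -0.22 for *Wnt5a*, -0.38 and -0.32 for *Wnt10a*, and -0.20 and -0.25 for *Wnt2b*. The remaining 5 ligands overlapped between genotypes, with log2 fold changes from -0.05 for *Wnt7b* to 0.29 for *Wnt5b*. Their log2 ratios within replicates 1 and 2 were 0.48 and -0.19 for *Wnt3*, -0.28 and 0.71 for *Wnt5b*, -0.00027 and 0.24 for *Wnt7a*, 0.073 and -0.17 for *Wnt7b*, and -0.43 and 0.84 for *Wnt9a*.

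Tissue content moved with genotype in these libraries. The 12 choroid plexus markers, all higher in both mutants, summed to 324 and 206 CPM in controls and 1217 and 8565 CPM in mutants, and *Enpp2* was the most abundant of them in controls. The 6 DGC markers, all lower in both mutants and led by *Prox1*, summed to 369 and 378 CPM in controls and 78.0 and 71.0 CPM in mutants. Of the 12 meningeal markers, led by *Ptgds*, 4 were lower and 1 higher in both mutants. Both mutants were also higher for 4 of 4 ependymal, 5 of 5 pericyte and mural, 4 of 4 CA1 and 4 of 5 inhibitory markers. The 5 astrocyte markers, led by *Slc1a2*, summed to 4081 and 4251 CPM in controls and 3475 and 3163 CPM in mutants. Of these 5, 2 were lower in both mutants and 0 higher. Among all genes tested, both mutants were above both controls for 25.8% and below them for 25.4%. The part of tissue content in the bulk values of the ligands was not tested.

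**Figure D5:**
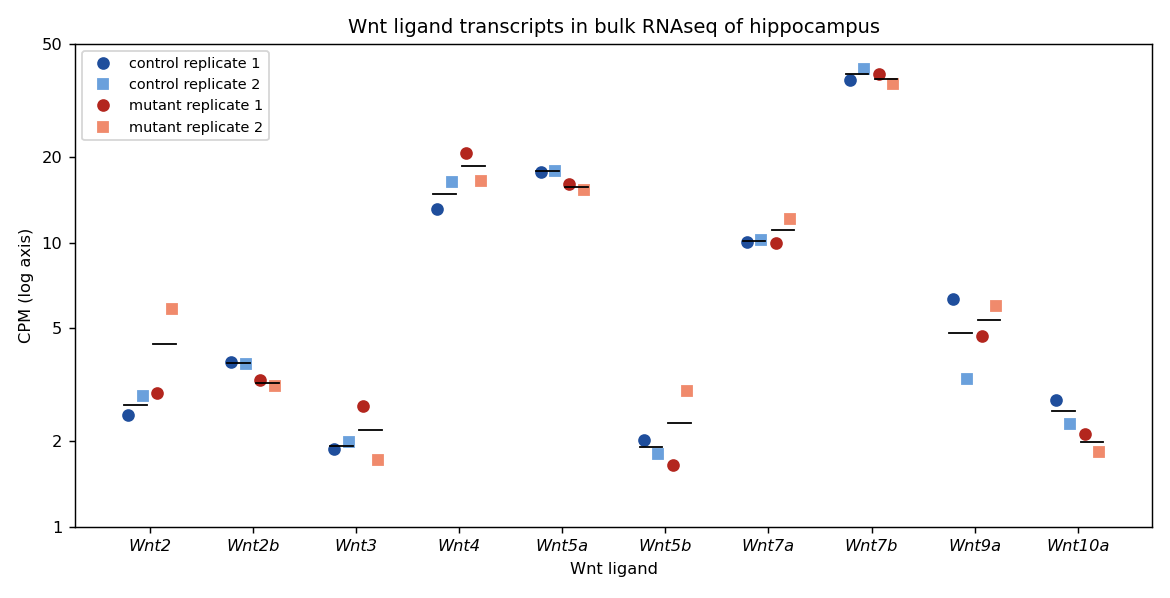
CPM of the 10 Wnt ligands in bulk RNAseq on a log axis, with 1 point per sample and a line at the mean of each genotype. Control and mutant points lie close together for most ligands, *Wnt7b* is near 40 CPM in all samples and *Wnt2* is highest in mutant replicate 2 (5.85 CPM).

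Of the 9 other Wnt genes, 7 could be tested in bulk and none was called. The lowest p was that of *Wnt9b*, at 1.06 and 1.03 CPM in controls and 0.289 and 0.189 CPM in mutants (log2 fold change -2.14 ± 0.36, FDR 0.0747). *Wnt16* was at 1.52 and 1.39 CPM in controls and 0.629 and 0.302 CPM in mutants (-1.66 ± 0.40, FDR 0.129), also lower in both. By replicate the log2 ratios were -1.58 and -1.97 for *Wnt9b* and -1.16 and -1.89 for *Wnt16*. In nuclei *Wnt9b* was found in mossy cells, with 17.04 and 10.8 UPM in controls and 10.7 and 8.58 UPM in mutants. In bulk the 6 mossy cell markers, led by *Sv2c*, summed to 99.97 and 89.4 CPM in controls and 66.9 and 39.96 CPM in mutants. Of these 6, 4 were lower in both mutants and 0 higher, against 25.4% lower and 25.8% higher of all genes. The part of the mossy cell content in the bulk value of *Wnt9b* was not tested. *Wnt16* was highest in excitatory neurons 19, with 80.4 and 27.4 UPM in controls and 21.0 and 64.3 UPM in mutants, but DGC held 87 of its 129 control UMIs (67.4%) and 14 of its 67 mutant UMIs (20.9%). The part of the lower number of DGC in its bulk value was not tested. *Wnt6* shared its highest type with *Wnt4*, with 89.5 and 119.8 UPM in inhibitory neurons 14 of the controls and 109.6 and 64.6 UPM in the mutants. Unlike *Wnt4*, it was scarce elsewhere. Excitatory neurons 19 had 13.4 and 54.9 UPM in the controls, and the other tested types had control means of at most 0.635 UPM. *Wnt8b* was highest in astrocytes, at 1.79 and 6.79 UPM in controls, and the control means of *Wnt1*, *Wnt8a*, *Wnt10b* and *Wnt11* were at most 4.57 UPM in any type.

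Among the 12 genes of Wnt production and release, which include the glypicans and the retromer that returns *Wls* protein to the Golgi, 0 were called in bulk, and the lowest p was that of *Gpc4*. *Gpc4*, a glypican that binds Wnts at the cell surface, was at 39.6 and 34.1 CPM in controls and 18.6 and 21.8 CPM in mutants (log2 fold change -0.87 ± 0.12, FDR 0.0505). *Wls* in bulk was at 13.2 and 13.03 CPM in controls and 3.67 and 6.86 CPM in mutants, a log2 fold change of -1.31 ± 0.30 (FDR 0.117). *Porcn* was at 65.9 and 63.7 CPM in controls and 63.0 and 58.4 CPM in mutants, and no type of nuclei gave a call for it. The log2 ratios by replicate were -1.09 and -0.64 for *Gpc4*, -1.82 and -0.91 for *Wls*, and -0.065 and -0.13 for *Porcn*.

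The 17 receptor genes gave 0 calls in bulk. *Fzd4* had 6.47 and 6.88 CPM in controls and 10.6 and 13.3 CPM in mutants, and *Fzd10* 3.61 and 3.45 CPM in controls and 6.07 and 6.60 CPM in mutants, both with a log2 fold change of 0.84 and with mutants above controls. Log2 ratios within replicates 1 and 2 were 0.70 and 0.94 for *Fzd4* and 0.73 and 0.91 for *Fzd10*. Of 11 feedback and target genes tested, 0 passed the fold threshold, and 1, *Apcdd1*, passed FDR alone. *Apcdd1*, a Wnt inhibitor that beta-catenin signalling induces, was at 26.4 and 25.2 CPM in controls and 13.8 and 12.98 CPM in mutants, with a log2 fold change of -0.95 ± 0.09, FDR 0.0244 and log2 ratios of -0.93 and -0.95 within replicates 1 and 2. With replicate number, and so sex, in the fit its FDR was 0.0504 by edgeR's quasi-likelihood test, and it was 0.22 and 0.253 without control replicate 1 or 2. With no fold threshold 1.21% of all genes were called. *Axin2*, the common readout of the canonical branch, was at 28.0 and 28.5 CPM in controls and 16.8 and 21.0 CPM in mutants (-0.58 ± 0.12, FDR 0.11). Its log2 ratios within replicates were -0.73 and -0.44 for *Axin2*.

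The 9 secreted antagonists that could be tested gave 0 calls in bulk. *Dkk3* was at 340.6 and 378.4 CPM in controls and 423 and 481 CPM in mutants (0.33 ± 0.09, with log2 ratios of 0.31 and 0.35 within replicates 1 and 2), and *Sfrp5* at 0.248 and 0.164 CPM in controls and 0.612 and 3.51 CPM in mutants (3.34 ± 0.91, FDR 0.156), with log2 ratios of 1.03 and 3.77 within replicates 1 and 2. The choroid plexus markers had the same order of samples as *Sfrp5*, and their part in its value was not tested. In the 18 cell types no receptor, target or antagonist gene was called between genotypes. In the test of a type against the mean of the other types, *Rnf43*, which encodes a ligase that removes frizzled receptors, differed by -1.82 on the log2 scale in astrocytes (FDR 0.0486), and *Dkk3* in excitatory neurons 10 differed by -1.16 (FDR 0.0097). The median log2 fold change in bulk was 0.14 over the ligands, 0.09 over the receptors, -0.11 over the targets and 0.01 over all genes. It was 0.21 over the antagonists and -0.0032 over the genes of production and release. Over the other Wnt genes it was -0.54, with 5 of the 7 tested negative.

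For the 8 ligands with at least 200 UMIs in control nuclei, the genes whose levels followed theirs most closely were found over the 17 types with at least 50 control nuclei, as Pearson's r of log2(UPM + 1) between types. The points are types that share libraries and differ in depth, and r is given as a description. *Wnt7a* was most like *Rfx4* (r = 0.889), *Sox6* (0.886) and *Agpat5* (0.882), of which *Rfx4* and *Sox6* encode transcription factors. *Wnt5a* was most like *Fgd5* (0.887), *Nr2f2* (0.862) and *Gnas* (0.854), and *Wnt5b* like *Guk1* (0.872), *2610002M06Rik* (0.849) and *Slc9a3r2* (0.826).

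*Wnt2* was most like *B4galnt3* (0.863), *Cacna1i* (0.827) and *Prox2os* (0.815), and *Wnt9a* like *Itga10* (0.862), *Bbc3* (0.856) and *Ppp1r3a* (0.847). *Wnt7b* was most like *Diaph3* (0.836), *Gm32834* (0.825) and *2010103J01Rik* (0.801), *Wnt4* like *Lmntd1* (0.789), *Tpm1* (0.778) and *Mrps18b* (0.778), and *Wnt2b* like *Psmd6* (0.755), *Gm13889* (0.748) and *Clns1a* (0.748). No ligand had another Wnt gene among its 3 closest.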

How the data were processed

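RNA of the hippocampus was measured by bulk RNAseq and snRNAseq in 2 mutant and 2 control mice each. Per the submitters' processing notes, the authors used RSEM 1.3.0 and Bowtie2 2.2.9 for bulk and Cell Ranger 3.1.0 for nuclei, and deposited expected counts and TPM per gene for bulk, and UMI counts per gene and nucleus with a cell type label. The authors also deposited FPKM per gene, a bulk matrix of expected counts divided by size factors (a signal), and a size factor per nucleus, which is a ratio of its UMIs to the mean. Here expected counts were rounded, nuclei counts were summed per sample and label, and genotypes were compared with edgeR 4.0.16 (quasi-likelihood, Benjamini-Hochberg FDR; R 4.3.3) over all genes that passed edgeR's filter on low counts, called at FC above 3 in bulk and above 2 in nuclei at FDR below 0.05. Each bulk library had 56002381 to 79576196 counts and each nuclei library 26307081 to 76486132 UMIs. Doublets were not called here. Alternatives were RLE scaling, no filter, DESeq2 1.42.0, limma on log2(value + 1) of the authors' normalised bulk matrix, a replicate block and leaving out each mouse. Fits were tested on simulated data. The members, lists and named genes (all 10 ligands; the other Wnt genes, *Wls*, *Porcn*, the 2 genes of lowest p in each pathway list in bulk, and the 3 genes most like each ligand) were chosen with earlier results of these data known. The replicates were different mice. An exact permutation test of 2 against 2 cannot go below p = 0.333.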

Additional observations from a re-analysis of the deposited data

Results flagged for a closer look

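The change with genotype differed between cell types for 4 of the Wnt and pathway genes, by edgeR's test of the log2 fold change in a type minus the mean of that in the other types. For *Wnt4* in DGC this difference was 1.65 (FDR 6.1e-04). For *Wls* it was 2.32 in DGC (FDR 0.0038) and 1.46 in CA3 (FDR 0.0213), where *Wls* was low in controls too, and -2.71 in astrocytes (FDR 0.0132) and -2.57 in oligodendrocytes (FDR 0.0098). For *Rnf43* it was -1.82 in astrocytes (FDR 0.0486) and for *Dkk3* -1.16 in excitatory neurons 10 (FDR 0.0097). For *Wnt2*, *Wnt3*, *Wnt9a* and *Wnt10a*, the difference could not be estimated. Of the 15499 genes tested, 0.723% passed this test in DGC, 0.239% in CA3, 0.174% in astrocytes, 0.0323% in oligodendrocytes and 0.0194% in excitatory neurons 10.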

How the results depend on the processing

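With 2 mice per group, counts of calls moved with single mice, and a fit without 1 mouse assumes that the lone sample varies like the others. Bulk genes called lower (41) were 112 with no filter, 24 with the replicate block, 209 with no fold threshold, 76 at FC above 2, and 0 to 147 without 1 mouse. Those called higher (4) were 201, 2 and 41 in the first 3 settings, 69 by DESeq2 and 0 to 248 without 1 mouse. Tests of a ligand in a type that passed (1) were 2 with no filter, which adds *Wnt7b* in CA3, 3 with the replicate block, which adds *Wnt7b* in CA3 and *Wnt9a* in DGC, and 0 to 5 without 1 mouse: 0 without mutant replicate 2 and 5 without control replicate 2 (*Wnt4* in DGC and CA3, *Wnt7b* in DGC, CA2 and CA3). Types with lower *Wls* (4) were 10 with no filter. In DGC 96 genes were lower and 124 higher, against 261 and 295 with no filter, 261 and 308 with the replicate block, and 0 to 208 and 0 to 363 without 1 mouse. The log2 fold change of *Wnt4* in DGC ranged from 1.55 to 2.80 without 1 mouse and was 2.16 with the replicate block. The cause of these shifts was not tested.

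*Wnt9a* in excitatory neurons 19 turned from -0.30 to 0.12 by DESeq2. Counted per nucleus, the ratio of the highest to the next type fell below 1 for *Wnt2b* (0.764), *Wnt5b* (0.547) and *Wnt7b* (0.763). Without 1 mouse the bulk log2 fold change reached from -0.16 to 0.46 for *Wnt3*, -0.22 to 0.65 for *Wnt5b*, -0.024 to 0.26 for *Wnt7a*, -0.12 to 0.016 for *Wnt7b* and -0.25 to 0.69 for *Wnt9a*. In nuclei it reached from -0.076 to 0.29 for *Wnt4* in inhibitory neurons 14, -1.28 to 0.48 for *Wnt5a* in inhibitory neurons 14, -0.19 to 0.21 for *Wnt7a* in astrocytes, -0.42 to 4.1e-05 for *Wnt7b* in OPC, -1.90 to 1.09 for *Wnt9a* in excitatory neurons 19 and -3.20 to 0.21 for *Wnt10a* in excitatory neurons 7. The ratio in UPM of the type with the highest control mean to the highest other type reached from 0.642 to 2.61 for *Wnt2* and 0.9496 to 1.21 for *Wnt2b*. Of 180 alternatives for bulk log2 fold changes 165 kept direction and side of the threshold, and of 148 in nuclei 132 did. Leaving out the labels with another marker list ahead of their own gave no value for a ligand whose highest type is such a label. Deviations of mice with the same replicate number had r = 0.02 in bulk and 0.45 over all nuclei, with 2 pairs, so the number is not known to pair them in nuclei, whereas in bulk it follows the sex pattern. With the bulk block the FDR of *Apcdd1* was 0.0504, and no ligand was called. Depth limits *Wnt3*, *Wnt10a* and *Wnt9a* most, with 127, 134 and 371 control UMIs.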
